A study of Mus musculus with 11 samples.

Results

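The mitosis genes are 39 genes whose products carry a cell from the end of DNA replication through chromosome condensation, spindle assembly, chromosome segregation and cytokinesis. They were given as a list of names, and each was matched to its array probes by the transcript accession of the probe. All 39 were among the 20144 genes matched to a probe, through 57 probes, and 35 of them were among the 15953 genes tested. Liver RNA of db/db mice, which lack a working leptin receptor and become obese and diabetic, was measured on 11 two-colour Agilent arrays. The PBS group held 5 samples, numbered 1, 3, 4, 5 and 6, from db/db mice given PBS. The anti-GCGR group held 6 samples, numbered 1 to 6, from db/db mice given 5 mg/kg of 3c7.v44 mAb, an antibody against the glucagon receptor (GCGR). Both groups carry the db/db genotype, so no lean control enters the comparison. Age, sex, the dosing schedule and the time of sampling were not given in the sources used here.

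Every array carried liver RNA in Cy5 and the same commercial pool of mouse RNA in Cy3, and each value is log2(Cy5/Cy3), the level in liver relative to that pool. A value of -3 therefore means a lower level than in the pool, and one gene's ratio cannot be set against another's as an amount of RNA. The labels do not say whether samples came from separate mice, so p-values reflect only how these samples vary, and the number of arrays limits their precision. Differences are the anti-GCGR mean minus the PBS mean of the log2 ratios. The adjusted p comes from limma's moderated test with Benjamini-Hochberg adjustment over the 15953 genes, and a gene is said to have risen or fallen when it is under 0.05. Median Cy5 signal was 85 to 110 per array against a background of 26 to 27, and 66.2 to 77.1% of gene spots were well above background.

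As background, most hepatocytes of an adult liver rest outside the cell cycle, and RNAs of this class are scarce until cells enter the cycle. In cycling cells the mitosis genes are switched on together late in the cycle. The DREAM complex holds their promoters silent in resting cells, and B-MYB and FOXM1 with the MuvB core activate them later. MuvB binds a short element near the start site called the CHR, often downstream of CCAAT boxes bound by NF-Y.

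The promoters of the members were read from RefSeq (GRCm38.p6), as windows of 300 bases from 250 before to 50 after each start. They are shown because the members are known for this shared promoter layout. The windows of 33 of the 39 members were matched, 36 windows in all, including 11 of the 13 that rose. No window was matched for Aurkb, Ccna2, Foxm1, Incenp, Kif20a or Tpx2. Capitals mark the CHR, searched as TTTGAA or TTCGAA on both strands, so that TTCAAA is the first read from the other strand, and the CCAAT box, searched as CCAAT on both strands, so that ATTGG is the same box. The letters of both motifs can overlap by 1 base, which they do in none of the windows printed. Sequences run 5′ to 3′ on the gene's strand, for Ccnb2 at chr9:70421505-70421804 (minus), Cdk1 at chr10:69352863-69353162 (minus), Plk1 at chr7:122159185-122159484 (plus), Hmmr at chr11:40733388-40733687 (minus), Mki67 at chr7:135716330-135716629 (minus) and Mad2l1 at chr6:66534971-66535270 (plus).
Ccnb2: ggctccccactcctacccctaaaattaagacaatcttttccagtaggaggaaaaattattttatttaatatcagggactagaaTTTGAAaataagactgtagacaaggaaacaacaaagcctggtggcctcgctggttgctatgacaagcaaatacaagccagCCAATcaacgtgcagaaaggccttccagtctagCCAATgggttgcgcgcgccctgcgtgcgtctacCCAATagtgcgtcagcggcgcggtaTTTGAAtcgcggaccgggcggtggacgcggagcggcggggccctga
Cdk1: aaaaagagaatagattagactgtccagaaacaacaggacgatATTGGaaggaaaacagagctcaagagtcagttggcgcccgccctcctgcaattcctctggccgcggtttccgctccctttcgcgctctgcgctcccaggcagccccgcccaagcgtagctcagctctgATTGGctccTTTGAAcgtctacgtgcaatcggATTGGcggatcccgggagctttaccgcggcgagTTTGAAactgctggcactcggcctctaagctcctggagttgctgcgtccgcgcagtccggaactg
Plk1: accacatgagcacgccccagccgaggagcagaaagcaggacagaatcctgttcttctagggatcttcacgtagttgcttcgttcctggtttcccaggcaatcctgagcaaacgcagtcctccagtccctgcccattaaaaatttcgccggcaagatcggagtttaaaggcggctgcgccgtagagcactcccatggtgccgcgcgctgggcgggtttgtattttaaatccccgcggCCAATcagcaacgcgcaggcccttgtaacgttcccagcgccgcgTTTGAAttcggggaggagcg
Hmmr: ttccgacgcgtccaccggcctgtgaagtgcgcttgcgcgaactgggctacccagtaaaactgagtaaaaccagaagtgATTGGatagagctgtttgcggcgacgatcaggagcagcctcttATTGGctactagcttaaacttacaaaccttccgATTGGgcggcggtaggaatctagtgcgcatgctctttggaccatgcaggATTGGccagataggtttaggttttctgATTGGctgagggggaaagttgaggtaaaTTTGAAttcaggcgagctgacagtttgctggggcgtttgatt
Mki67: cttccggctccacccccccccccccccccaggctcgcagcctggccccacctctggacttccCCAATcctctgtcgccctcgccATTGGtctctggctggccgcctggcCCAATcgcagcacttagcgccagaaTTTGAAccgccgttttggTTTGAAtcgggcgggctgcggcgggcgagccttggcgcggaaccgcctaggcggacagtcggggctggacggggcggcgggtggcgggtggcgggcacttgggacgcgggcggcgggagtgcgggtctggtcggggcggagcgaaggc
Mad2l1: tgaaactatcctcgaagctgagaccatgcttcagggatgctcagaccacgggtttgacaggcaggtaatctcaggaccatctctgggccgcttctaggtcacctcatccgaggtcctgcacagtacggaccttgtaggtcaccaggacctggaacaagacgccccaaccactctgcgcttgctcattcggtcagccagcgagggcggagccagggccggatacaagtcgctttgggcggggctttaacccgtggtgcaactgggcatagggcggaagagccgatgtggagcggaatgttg

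Among the 36 windows of the members, 29 (80.6%) held a CHR, against 6316 of all 32851 promoter windows of the same length (19.2%). A CHR within 50 bases of the start was found in 75.0% of the members' windows and in 5.31% of all windows. At least 2 CCAAT boxes were found in 18 of the 36 windows (50%), against 11.7% of all windows. In the windows printed, Ccnb2 has a CHR at position 5 from the start and 3 CCAAT boxes upstream of it, and Hmmr has a CHR at 9 and 5 CCAAT boxes. Both CHRs of Mki67 lie further upstream, and the window of Mad2l1 holds neither motif. A CHR was present in 9 of the 12 windows of members that rose and in 20 of the 24 windows of the other members. A match of letters is a description and not a measured binding site.

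In livers of the anti-GCGR group, 13 of the 35 tested mitosis genes rose (37.1%) and none fell, while 22 did not reach the threshold. Over all tested genes 8.98% rose and 5.67% fell. The members and the gene lists below were chosen with earlier results of these data known, so these shares are a description and not a test. The difference was above 0 for 34 of the 35 (27 with each array centred on its median in place of the loess fit), with a median of 0.24 on the log2 scale against 0.01 over all tested genes, and it ran from -0.24 (Cep55) to 0.64 (Mad2l1, or 0.31 as the mean of its probes). The genes that rose were the kinases and cyclin Cdk1, Ccnb2, Plk1 and Aurka, the transcription factor Foxm1, the kinetochore and checkpoint genes Mad2l1, Nuf2, Ndc80 and Cenpe, the proliferation marker Mki67, the passenger protein Incenp and the spindle proteins Hmmr and Prc1. Their rises ran from 1.14-fold (Aurka) to 1.56-fold (Mad2l1), and in bulk liver more cells with a given RNA cannot be told apart from more RNA per cell. In 9 members every anti-GCGR sample lay above every PBS sample, which held for 3.96% of all tested genes, and in none did every one lie below (2.7% of all). With no filter on dim probes, 12 of the 39 rose, against 6.7% of 20144 genes. In limma no member was lower at an unadjusted p under 0.05 either. The count of 13 dropped to 7 without PBS replicate 1, to 7 without PBS replicate 4 and to 8 without anti-GCGR replicate 3. In those fits the share of all genes that rose was also lower than 8.98%, at 4.90%, 6.26% and 6.17%. Under that median centring 5 members rose (Mad2l1, Incenp, Hmmr, Cenpe and Foxm1), and the split over all genes was 582 higher and 2146 lower in place of 1432 and 904. That centring moved the median of all genes to -0.06 and that of the members to 0.13. With the scanner software's own ratios, 10 members rose (median of the members 0.32), 7 of them among the 13, and 978 of all genes rose and 1185 fell. The calls of Cdk1, Ccnb2, Aurka, Nuf2, Ndc80 and Prc1 were lost there. With the Cy5 channel alone 11 members rose, 9 of them among the 13 (Cdk1, Mki67, Nuf2 and Prc1 were lost), and 1172 of all genes rose and 1149 fell.

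**Figure D1:**
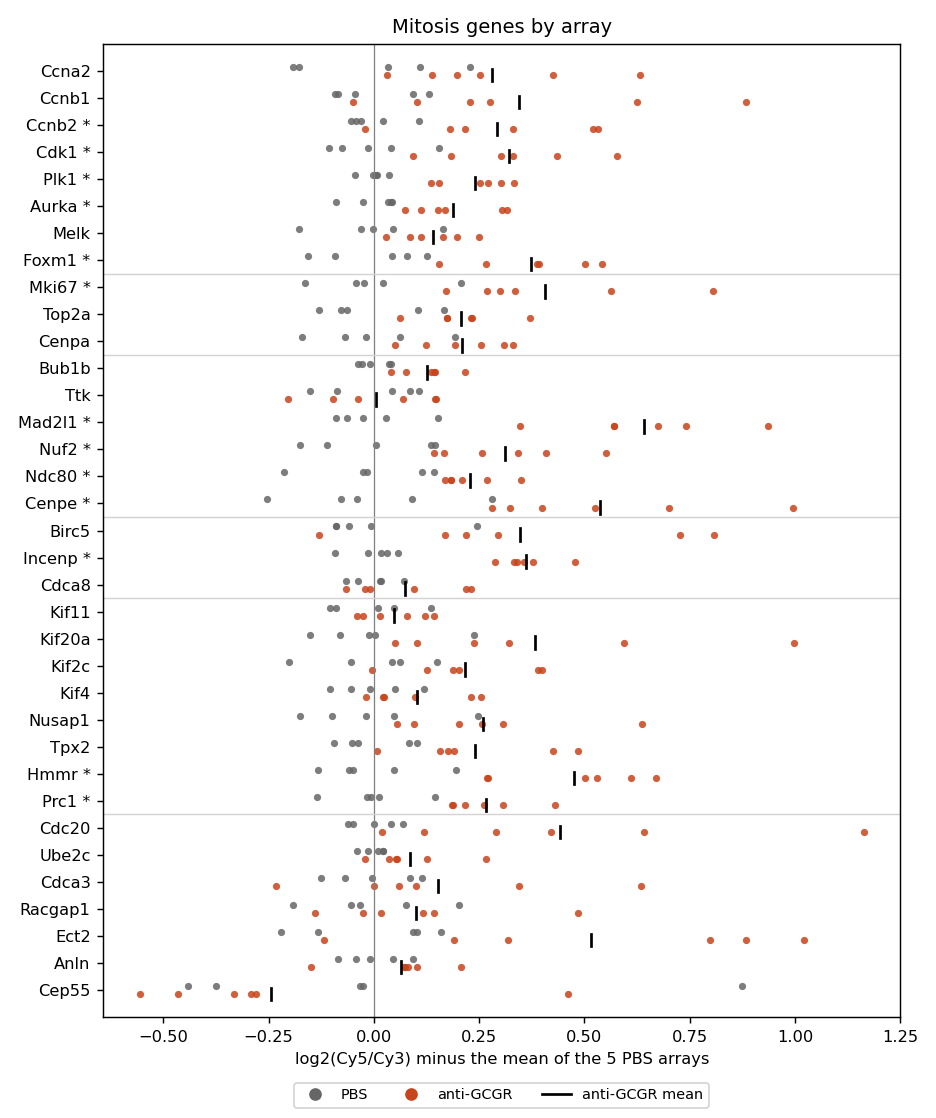
Each of the 35 tested mitosis genes, ordered by role (grey lines part the roles), with log2(Cy5/Cy3) minus the mean of the 5 PBS arrays on the x axis. Points are single arrays (grey PBS, orange anti-GCGR), black bars are anti-GCGR means, and * marks the 13 genes that rose. For Mad2l1 and Incenp all orange points lie to the right of the grey ones, and for Cep55 1 PBS point lies far to the right.

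**Figure D2:**
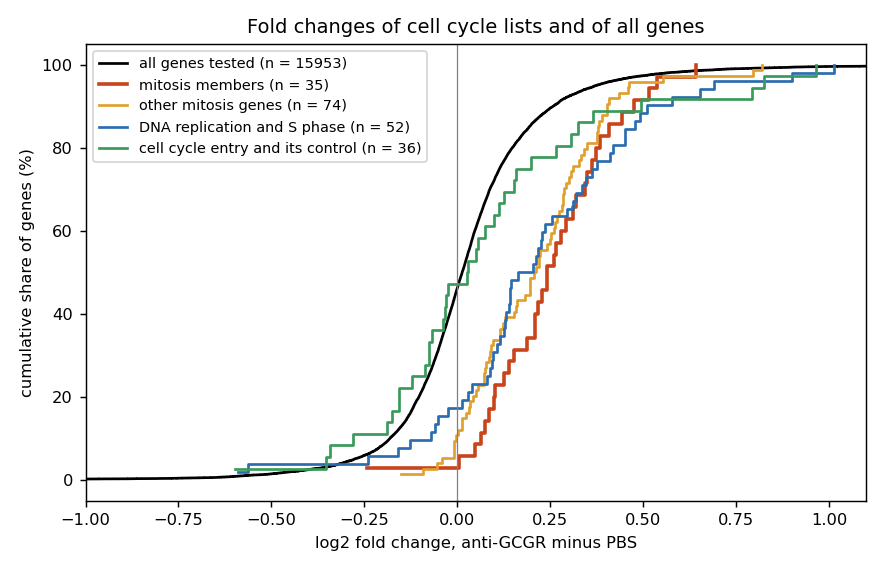
Cumulative share of genes (y axis, percent) by difference between groups (x axis, anti-GCGR minus PBS, log2 ratio) for all 15953 tested genes, the 35 tested mitosis genes and the 3 other cell cycle lists, 1 line each. The median is 0.01 for all genes and 0.24 for the mitosis genes, of which 34 lie above 0 (27 under median centring).

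Of the 8 members that drive entry into mitosis, 5 rose and the median difference of the 8 was 0.29. Cdk1, the kinase whose activity starts mitosis, read -3.32, -3.09, -3.26, -3.35 and -3.20 in PBS replicates 1, 3, 4, 5 and 6, and from -3.15 through a median of -2.93 to -2.67 in the anti-GCGR samples. Only the lowest anti-GCGR sample lay below the highest PBS sample. The difference was 0.32 ± 0.08 (SE, 5 against 6 samples), with an adjusted p of 0.0238, and a second, dimmer kept probe gave 0.22. Ccnb2, one of the B-type cyclins that activate Cdk1, read -2.63, -2.47, -2.61, -2.56 and -2.62 in PBS samples and -2.60, -2.30 and -2.04 as the lowest, median and highest of the anti-GCGR samples. The anti-GCGR samples spread more widely than the PBS samples, and the lowest of them lay among the PBS values. The difference of 0.29 ± 0.09 passed at an adjusted p of 0.0492, close to the threshold. Plk1, a kinase acting in centrosome maturation and chromosome attachment, was tight in the PBS group at -2.63, -2.69, -2.64, -2.64 and -2.61, against -2.51, -2.38 and -2.31 (lowest, median, highest) in the anti-GCGR group. No anti-GCGR sample reached down to the PBS range, and the difference was 0.24 ± 0.05, with an adjusted p of 0.0101. Aurka, the kinase of the spindle poles, read -2.79, -2.79, -2.92, -2.86 and -2.80 in PBS samples and ran from -2.76 through -2.67 to -2.52 in anti-GCGR samples. The groups did not overlap, although the gap between them was narrow, and the difference was 0.19 ± 0.06, with an adjusted p of 0.0430.

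Foxm1, the transcription factor that activates many mitosis genes, read -2.21, -2.08, -2.28, -2.04 and -2.0 in PBS samples and -1.97, -1.73 and -1.58 (lowest, median, highest) in anti-GCGR samples. The lowest anti-GCGR sample lay just above the highest PBS sample, so the groups did not overlap. The difference was 0.37 ± 0.08, with an adjusted p of 0.0107. A second, dimmer probe of Foxm1 differed by -0.03, and with the mean of the kept probes in place of the brightest the difference was 0.17 and the adjusted p 0.131. Ccna2 and Ccnb1, the cyclins of the S and G2 phases and of mitosis, differed by 0.28 ± 0.11 (adjusted p 0.102) and 0.34 ± 0.14 (adjusted p 0.117). In both the anti-GCGR samples ran from within the PBS range to well above it, with replicate 5 highest and replicate 3 next. Melk, a kinase abundant in dividing cells, differed by 0.14, with an adjusted p of 0.159.

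The 4 members of chromosome structure included 3 that were tested, of which 1 rose. Mki67, which coats mitotic chromosomes and encodes the proliferation marker Ki-67, read -5.13, -4.76, -5.01, -4.99 and -4.95 in PBS samples and -4.80, -4.65 and -4.16 (lowest, median, highest) in anti-GCGR samples. The lowest anti-GCGR sample was slightly below PBS replicate 3, and the other 5 lay above all PBS samples. The difference was 0.41 ± 0.11, with an adjusted p of 0.0244, and the second probe of the gene gave 0.45. Top2a, the topoisomerase that untangles chromosomes, differed by 0.21 ± 0.07 (adjusted p 0.0601), and Cenpa, the histone that marks centromeres, by 0.21 ± 0.07 (adjusted p 0.0684). Top2a passed without PBS replicate 3 (0.25, adjusted p 0.0440) or with anti-GCGR sample 2 left out, and Cenpa without PBS replicate 3 (0.26, adjusted p 0.0423). Ncapg, a condensin subunit, was well above background on 0 of the 11 arrays and was not tested.

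Kinetochores tie chromosomes to the spindle, and the checkpoint holds the cell until all are attached. Of the 6 tested members with these roles, 4 rose. Mad2l1, the checkpoint protein MAD2 that holds back the anaphase-promoting complex, read -3.22, -3.01, -3.13, -3.18 and -3.25 in PBS samples and -2.81, -2.53 and -2.22 (lowest, median, highest) in anti-GCGR samples. Every anti-GCGR sample lay above the PBS range by a clear gap. The difference was 0.64 ± 0.09, with an adjusted p of 0.00409, a 1.56-fold higher ratio and the largest among the members when each gene is read from its brightest probe. The other kept probes of Mad2l1 gave 0.10 and 0.19, and the mean of its kept probes gave 0.31, so the size and the rank of this change depend on the probe. Cenpe, a motor that moves chromosomes to the spindle's middle, read -5.75, -5.21, -5.54, -5.41 and -5.57 in PBS samples and -5.21, -5.03 and -4.50 (lowest, median, highest) in anti-GCGR samples. The groups met at PBS replicate 3, which was level with the lowest anti-GCGR sample. The difference was 0.54 ± 0.13, with an adjusted p of 0.0174.

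Nuf2 and Ndc80 are partners in the complex that grips spindle microtubules. Nuf2 read -3.21, -2.96, -3.10, -3.28 and -2.96 in PBS samples and -2.96, -2.80 and -2.55 (lowest, median, highest) in anti-GCGR samples, a difference of 0.31 ± 0.08 with an adjusted p of 0.0288. The 2 highest PBS samples were level with the lowest anti-GCGR sample. Ndc80 read -3.21, -3.20, -3.40, -3.04 and -3.07 in PBS samples and -3.01, -2.99 and -2.83 (lowest, median, highest) in anti-GCGR samples, a difference of 0.23 ± 0.07 with an adjusted p of 0.0373. The anti-GCGR samples lay close together just above the highest PBS sample. Both genes were dim, below the median Cy5 signal of the arrays, though well above background on all 11. Mean uncorrected Cy5 signal in PBS and anti-GCGR samples was 61.5 and 73.4 for Nuf2, over a background of 26.6. For Ndc80 it was 54.6 and 59.25, over 27.1. Bub1b, the checkpoint protein BUBR1, also had groups that did not overlap, but only just. Its lowest anti-GCGR sample read -2.857 and its highest PBS sample -2.859. The difference of 0.13 ± 0.05 did not pass (adjusted p 0.0812). Ttk, the kinase MPS1 that starts checkpoint signalling, was well above background on 5 of the 11 arrays and differed by 0.004 (adjusted p 0.979, 95% interval -0.16 to 0.17), or by -0.03 under median centring. Bub1, another checkpoint kinase, was well above background on 2 arrays, and the kinetochore protein gene Cenpf on 0, so neither was tested.

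The chromosomal passenger complex corrects wrong attachments and later acts in cytokinesis. Its scaffold Incenp had the lowest adjusted p of the members. Incenp read -3.34, -3.19, -3.26, -3.23 and -3.21 in PBS samples and -2.96, -2.90 and -2.77 (lowest, median, highest) in anti-GCGR samples. Both groups were tight and lay well apart. The difference was 0.36 ± 0.05, with an adjusted p of 0.00369, and a second probe gave 0.30. Birc5, the subunit survivin, differed by 0.35 ± 0.15 (adjusted p 0.131), and its anti-GCGR samples ran from -4.28, below all PBS samples, to -3.34. The other kept probes of Birc5 differed by 0.26 and 0.17. Without anti-GCGR replicate 1 Birc5 passed (0.44, adjusted p 0.0476). Cdca8, the subunit borealin, differed by 0.08 (adjusted p 0.472), or by -0.03 with median centring and -0.05 on slide 1 alone. Aurkb, the kinase of the complex, was well above background on 0 arrays and was not tested.

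Of the 8 spindle proteins and motors, 2 rose. Hmmr, a spindle protein that also binds hyaluronan, read -1.56, -1.46, -1.64, -1.31 and -1.56 in PBS samples and -1.24, -0.99 and -0.84 (lowest, median, highest) in anti-GCGR samples. PBS replicate 5 was the highest of its group and still lay below all anti-GCGR samples. The difference was 0.48 ± 0.09, with an adjusted p of 0.00644. Prc1, which bundles the midzone microtubules between separating chromosomes, read -2.68, -2.65, -2.67, -2.80 and -2.52 in PBS samples and -2.47, -2.42 and -2.23 (lowest, median, highest) in anti-GCGR samples. The groups did not overlap, and the difference was 0.27 ± 0.06, with an adjusted p of 0.0160. The other 6 did not pass. The mitotic kinesin gene Kif20a differed by 0.38 ± 0.15 (adjusted p 0.10), the spindle proteins Nusap1 and Tpx2 by 0.26 and 0.24, and the microtubule-depolymerising kinesin Kif2c by 0.22. Tpx2 passed without anti-GCGR replicate 2 (0.29, adjusted p 0.0355), and its second kept probe differed by -0.10. The chromosome-arm kinesin gene Kif4 differed by 0.10 (-0.01 under median centring). Kif11, the motor that pushes spindle poles apart, differed by 0.05, or by -0.02 under median centring, -0.12 with the scanner software's ratios and -0.03 with Cy5 alone.

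None of the 7 members that act in exit from mitosis and in cytokinesis rose, and their median difference was 0.10. Cdc20, which switches on the anaphase-promoting complex, read -3.12, -3.02, -3.06, -3.11 and -2.99 in PBS samples and -3.04, -2.71 and -1.90 (lowest, median, highest) in anti-GCGR samples. The PBS samples were close together while the anti-GCGR samples ran from the PBS range to far above it, with replicate 5 highest. The difference was 0.44 ± 0.16 (adjusted p 0.0855), and without anti-GCGR replicate 5 it was smaller but passed (0.30, adjusted p 0.0460). Ect2, which activates RhoA to form the contractile ring, read -3.69, -3.64, -4.02, -3.93 and -3.70 in PBS samples and -3.91, -3.24 and -2.77 (lowest, median, highest) in anti-GCGR samples. Its 5 higher anti-GCGR samples lay above all PBS samples and replicate 2 lay among them. The difference was 0.52 ± 0.18 (adjusted p 0.0755), and Ect2 passed without anti-GCGR replicate 2 (0.64, adjusted p 0.0257). Ube2c, the ubiquitin-conjugating enzyme of the same anaphase complex, differed by 0.09 (adjusted p 0.317, -0.04 under median centring). Cdca3, which acts in the degradation of Wee1, differed by 0.15, or by -0.12 on slide 1 alone. Racgap1 of the central spindle and the ring scaffold Anln differed by 0.10 and 0.06, or by -0.02 and -0.06 under median centring. A second, dimmer kept probe of Racgap1 differed by 0.27, so the size of its difference depends on the probe. Cep55, which recruits the proteins that sever daughter cells, was the 1 member with a negative difference, -0.24 ± 0.23 (adjusted p 0.517), and on slide 2 alone it was 0.44. Its PBS replicate 1 stood at 0.57 and anti-GCGR replicate 5 at 0.16, the only 2 member values above the reference pool, with all other Cep55 values between -0.86 and -0.33.

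**Figure D3:**
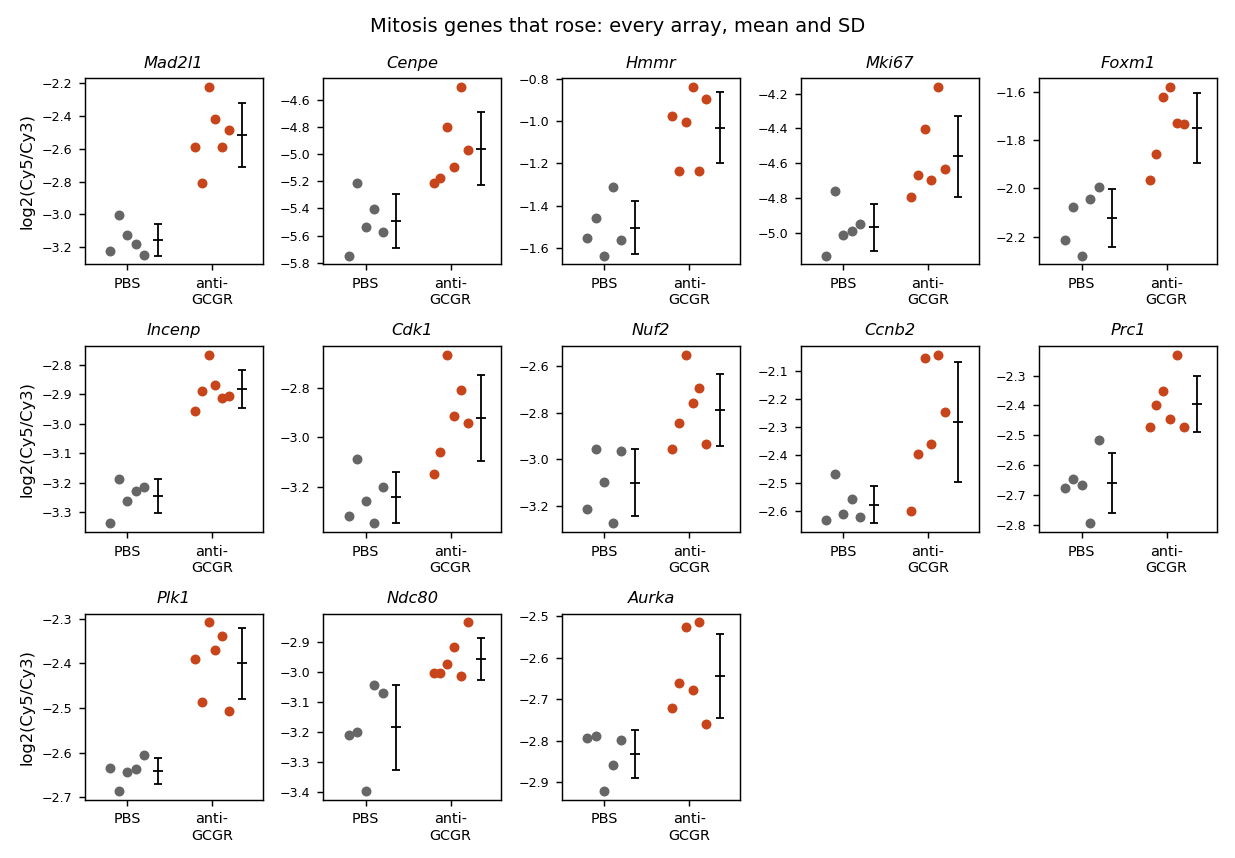
The 13 mitosis genes that rose, 1 panel a gene with a y axis of its own, with log2(Cy5/Cy3) on the y axis and the PBS and anti-GCGR groups on the x axis. Points are single arrays and bars are group means with SD (5 PBS, 6 anti-GCGR). Mad2l1 goes from a mean of -3.16 to -2.52 and Aurka from -2.83 to -2.64.

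The members were also averaged within each sample. The mean over the 35 tested members, set against the PBS mean, was -0.02, 0.11, -0.07, -0.05 and 0.03 in PBS replicates 1, 3, 4, 5 and 6. In anti-GCGR replicates 1 to 6 it was 0.10, 0.10, 0.37, 0.24, 0.47 and 0.21. Replicates 5 and 3 of the anti-GCGR group were highest, and replicates 1 and 2 were level with PBS replicate 3. Over the 13 members that rose the same mean lay between -0.07 and 0.09 in PBS samples and between 0.23 and 0.50 in anti-GCGR samples, a separation that their selection fixes. Over the 7 exit and cytokinesis members, anti-GCGR replicates 1 and 2 were at -0.13 and -0.04 and replicate 5 at 0.61.

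The arrays came from 3 slides, each with both groups. Slide 2 held only 1 PBS sample, replicate 5, beside 2 anti-GCGR samples, so every difference on slide 2 is against that single sample. Within slides 1, 2 and 3 the median difference of the members was 0.22, 0.32 and 0.21, and the difference was above 0 for 32, 35 and 31 of the 35. All 13 members that rose were higher in the anti-GCGR group on each slide, although Hmmr (0.69, 0.07 and 0.56 on slides 1, 2 and 3) and Ndc80 (0.35, 0.03 and 0.23) hardly differed on slide 2. For both genes PBS replicate 5 was the highest PBS sample. With slide as a block 14 members rose, 12 of them among the 13: Aurka lost its call, and Top2a and Cenpa gained one. The share of all genes that rose was also higher in that fit, at 10.9% against 8.98%. Leaving out 1 sample at a time, Plk1, Foxm1, Mad2l1, Cenpe, Incenp, Hmmr and Prc1 passed in all 11 fits. Cdk1 lost its call without PBS replicate 1 (0.30, adjusted p 0.0628), 4 or 5. Mki67 lost it without PBS replicate 1 (0.37), PBS replicate 4 or anti-GCGR replicate 3, at an adjusted p of at most 0.0667. Nuf2 lost it with PBS sample 1, 4 or 5 left out, or anti-GCGR sample 3 or 4, at an adjusted p of at most 0.0769. Ndc80 passed in only 3 of the 11 fits (without PBS replicate 5, PBS replicate 6 or anti-GCGR replicate 5), Ccnb2 in 1 (without anti-GCGR replicate 1) and Aurka in 1 (without anti-GCGR replicate 6).

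Both dyes were also read apart, after the ratios were normalized and brightness was made equal across arrays. The Cy5 difference minus the Cy3 difference is then the ratio's difference by construction, so the dyes are not an independent check of the ratio. Between groups the members' Cy3 signal, which holds the shared reference, differed by -0.19 (Mki67) to 0.10 (Bub1b) on the log2 scale. In Cy5 the differences of Mad2l1, Hmmr and Cenpe were 0.69, 0.54 and 0.53, near their differences in ratio. For Mki67 the ratio's difference of 0.41 was made of 0.22 in Cy5 and -0.19 in Cy3, for Prc1 of 0.14 and -0.12, and for Nuf2 of 0.20 and -0.11. The part of the reference channel in these 3 results was not tested.

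**Figure D4:**
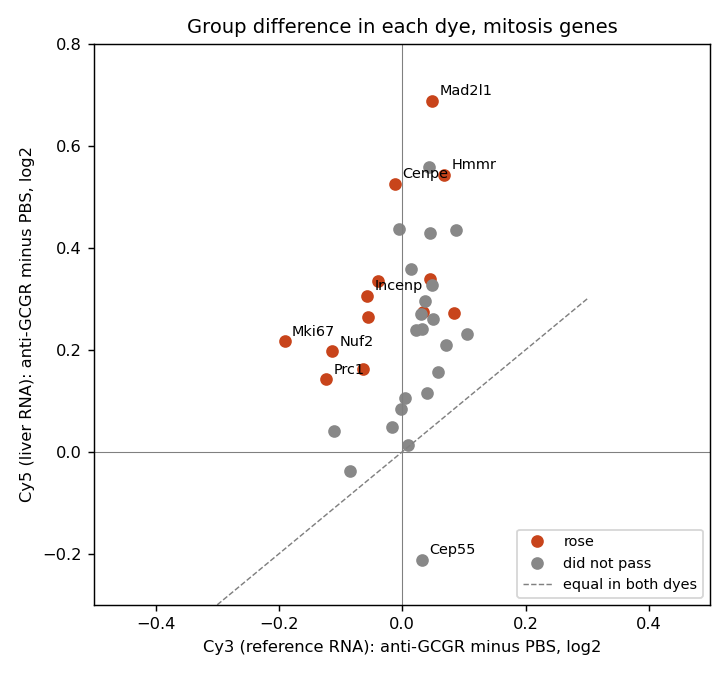
Difference between groups (anti-GCGR minus PBS, log2) of the tested mitosis genes in Cy5, the liver channel, on the y axis against Cy3, the reference channel, on the x axis, 1 point a gene. Cy3 differences lie between -0.19 and 0.10, and Mad2l1 stands highest in Cy5 at 0.69. Orange points are the genes that rose, and the dashed line marks equal differences in both dyes.

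Other genes of the cell cycle were taken from 3 lists. Of 74 tested other mitosis genes, 25 rose, none fell and the median difference was 0.21. The largest rises were in Spc25, a partner of Nuf2 and Ndc80 in the kinetochore (0.82 ± 0.12, adjusted p 0.00513), in the phosphatase gene Cdkn3 (0.80), in Shcbp1 (0.55) and in Oip5, which helps to load the centromere histone (0.46). The count of 25 was 14 without PBS replicate 1, 15 without PBS replicate 4, 16 without anti-GCGR replicate 3, 15 without anti-GCGR replicate 4 and 9 with median centring. Of 52 genes of DNA replication and S phase, 17 rose, 2 fell and the median was 0.18. Mcm6, a subunit of the replicative helicase, rose by 1.01 ± 0.21 (adjusted p 0.0118), Uhrf1, which maintains DNA methylation, by 0.90 (0.40, adjusted p 0.0504, as the mean of its probes), the replication fork gene Timeless by 0.69 and the licensing factor Cdt1 by 0.65. The uracil glycosylase gene Ung fell by 0.56 (adjusted p 0.00853). Tk1, thymidine kinase, differed by -0.59 with an adjusted p of 0.0493, and of the 11 fits that each leave out 1 sample it passed only without anti-GCGR replicate 5. With median centring 9 S phase genes rose. Of 36 genes of cell cycle entry and its control, 6 rose, 4 fell and the median was 0.03. Ccnd1, cyclin D1 of the G1 phase, rose by 0.97, the repressor E2f8 by 0.82 and the pocket protein gene Rbl1 by 0.37. Myc differed by 0.49 (adjusted p 0.0415) and passed in only 3 of the 11 fits, those without PBS replicate 5, PBS replicate 6 or anti-GCGR replicate 5. Tfdp2, a partner of E2F factors, fell by 0.60 and E2f5 by 0.35, while Tfdp1, another such partner, rose by 0.31 (adjusted p 0.00547). The kinase inhibitor genes Cdkn1c and Cdkn2c fell by 0.34 and 0.28. The other inhibitor genes of the list did not pass: Cdkn1a differed by 0.79 (adjusted p 0.0622), Cdkn1b by -0.03 and Cdkn2d by -0.07. Of the 4 falls, 2 were left when PBS sample 1, 3 or 4 was omitted, or anti-GCGR sample 4. With median centring 2 genes of this list rose.

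Markers of the cell types of liver were set beside the mitosis genes. All 8 hepatocyte markers were far above the reference pool in every sample, with array means of 5.99 to 6.23 in PBS samples and 5.97 to 6.18 in anti-GCGR samples, and none rose or fell, although 1 rose and 1 fell without anti-GCGR replicate 5. Of 9 stellate cell and fibroblast markers 5 rose, among them the collagen genes Col1a1 (1.57) and Col3a1 (1.09). Their mean, set against the PBS mean, was -0.14 to 0.17 in PBS samples and 0.23 to 0.92 in anti-GCGR samples. In anti-GCGR replicates 1 to 6 it was 0.31, 0.41, 0.78, 0.73, 0.23 and 0.92. Replicates 3 and 4 were higher than 1 and 2 in both lists, while replicate 5 was the highest of its group in mitosis genes and the lowest in these markers. Of 8 endothelial markers 3 rose, among them Cdh5 (0.38, but -0.07 with the scanner software's ratios) and Stab2 (0.28). Their mean ran from -0.13 to 0.08 in PBS samples and from -0.04 to 0.43 in anti-GCGR samples, with replicate 5 lowest. The 5 stellate calls became 2 when PBS sample 1 was omitted, or anti-GCGR sample 3 or 4, and 3 when PBS sample 4, 5 or 6 was. The 3 endothelial calls became 0 when PBS sample 1, 3 or 5 was omitted, or anti-GCGR sample 2 or 3, and 1 when sample 6 of either group was. Of 9 Kupffer cell and macrophage markers 2 rose (C1qb 0.45, Clec4f 0.23, which passed in 4 of the 11 fits and was 0.09 with the scanner software's ratios), with array means of -0.13 to 0.32 in PBS samples and -0.08 to 0.42 in anti-GCGR samples, lowest again in replicate 5. Of 6 erythroid markers 2 rose (Slc4a1 0.42, Hba-a1 0.21), with array means of -0.06 to 0.07 in PBS samples and -0.04 to 0.28 in anti-GCGR samples. Of the erythroid markers that did not pass, Hbb-bt differed by 0.20, Hba-a2 by 0.17, Alas2 by 0.02 and Klf1 by -0.28. Of 7 monocyte and neutrophil markers Ccr2 rose (0.48), joined by 1 other without PBS replicate 5, and of 6 T and NK cell markers Cd4 (0.57, lost when PBS sample 1, PBS sample 3 or anti-GCGR sample 4 was omitted). The other T and NK cell markers did not pass: Gzma differed by 0.34, Cd3d by 0.05, Cd3g by 0.03, Nkg7 by -0.03 and Cd3e by -0.13. No marker of B and plasma cells (7), cholangiocytes (6) or adipocytes (4) rose or fell with all samples. Without anti-GCGR replicate 5, 2 markers of B and plasma cells fell and 1 of cholangiocytes rose, and 1 adipocyte marker rose when PBS sample 1 or anti-GCGR sample 3 was omitted. The part of these cell types in the rise of the mitosis genes was not tested.

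**Figure D5:**
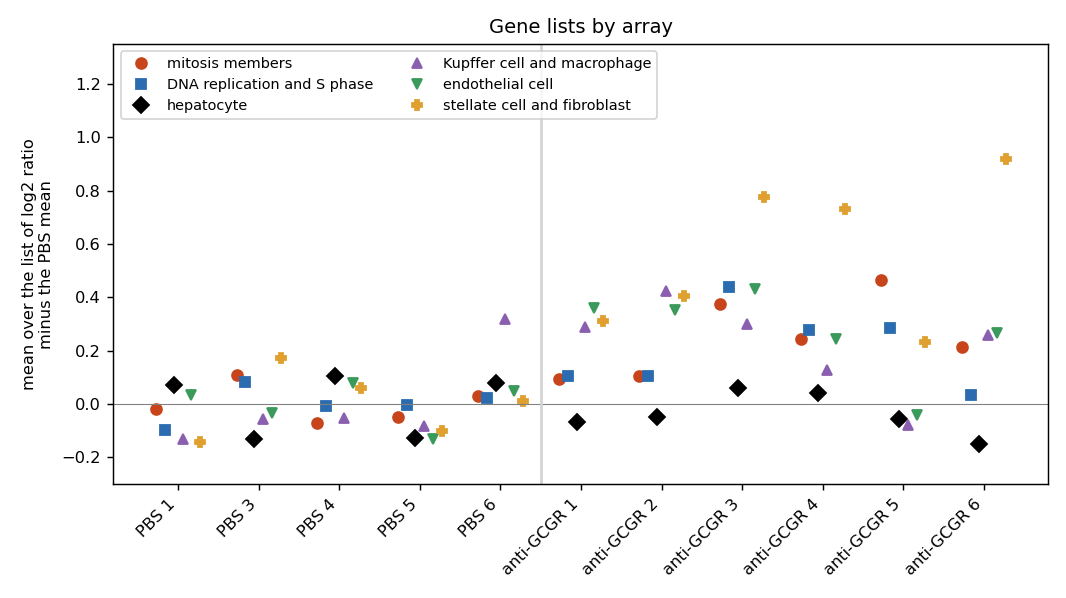
Mean log2 ratio over each gene list minus its PBS mean (y axis) for each of the 11 arrays (x axis), 1 symbol a list. The mitosis genes reach 0.47 on anti-GCGR replicate 5, where stellate cell and fibroblast markers are at 0.23 and endothelial markers at -0.04, and hepatocyte markers stay between -0.15 and 0.10 on all arrays.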

How the data were processed

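Liver RNA of 5 PBS and 6 anti-GCGR samples was measured. Per the labels, RNA was column-purified with DNase digestion and amplified into labelled cRNA, Cy5 for liver and Cy3 for the pooled reference. Scans were read by the authors in Agilent Feature Extraction, given as version 11 in the submitters' processing notes and 11.5.1.1 in the headers. Per the file headers the columns used are each spot's median intensity and median background in both dyes. The series value table deposited by the authors holds log2(Cy5/Cy3) and was an alternative, with a median absolute difference of 0.00329 to the ratios used. The scanner software's deposited log10 ratio, background-subtracted and dye-normalized per the file headers, was another.

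Computed here with limma 3.58.1 in R 4.3.3: normexp background correction (offset 50), loess within each array with control spots at weight 0, 160 uneven spots left out and spots of a probe averaged. Probe accessions without version were matched to RefSeq (GRCm38.p6), naming 26581 of 39429 probes. A probe was kept when every one of its spots passed the well-above-background flag in Cy5 on 5 or more arrays, and a gene was represented by its brightest kept probe. lmFit and eBayes compared the groups over all 15953 genes. The fit was tested on simulated data. Genes named are all mitosis genes, up to 4 rises and 4 falls of each cell cycle list, and up to 2 rises and 2 falls of each cell type list. A few other genes of these lists are named beside them. The members and lists were chosen with earlier results of these data known. PBS number 2 was not analysed here. Alternatives covered background, normalization, filter, probes, weights, slide, replicate number and each sample left out.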

Additional observations from a re-analysis of the deposited data

Results flagged for a closer look

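Among the members, 1 sample stood far from the rest of its group in 3 of the 70 groups of values examined, where chance gives about 1 in 20. Birc5 in PBS replicate 3 stood at -3.90, with the next PBS sample at -4.15. Anln in anti-GCGR replicate 1 stood at -2.63, with the next at -2.41. Cep55 in anti-GCGR replicate 5 stood at 0.16, with the next at -0.58.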

How the results depend on the processing

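None of the 13 mitosis genes that rose changed direction under any alternative run, and no member fell under any. With median centring 5 members rose (median 0.13), as did 9 other mitosis genes, 9 of DNA replication and S phase, 2 of cell cycle entry and 582 genes in all, while 2146 fell; it turned Ttk (-0.026), Cdca8 (-0.035), Kif11 (-0.022), Kif4 (-0.0050), Ube2c (-0.037), Racgap1 (-0.017) and Anln (-0.055). The scanner software's ratios turned Kif11 (-0.12) and Cdh5 (-0.069), Cy5 alone Kif11 (-0.032), and no background correction Ttk (-0.0041). With array weights 2232 genes rose and 1532 fell, 10 of them rises in the entry list. Slide 1 alone, with 4 arrays, gave 6 members, with Cdca8 at -0.054 and Cdca3 at -0.12, while 1395 of all genes rose (8.74%) and 1108 fell. Slide 2 alone, with 3 arrays, called 0 genes in limma in either direction and so 0 in every list (3 members at an unadjusted p under 0.05), with Cep55 at 0.44 and Tfdp2 at 0.0023. Slide 3 alone gave 476 higher and 293 lower genes, 2 members, 2 other mitosis genes, 0 of S phase and 3 of the entry list, with Ttk at -0.089, Kif11 at -0.0045 and Kif4 at -0.024. A slide alone has fewer samples by construction; the cause of the other shifts was not tested. Leaving out 1 sample at a time gave 7 to 13 members, 14 to 34 other mitosis genes, 782 to 2294 rises and 458 to 1574 falls in all, and Ttk between -0.034 and 0.045. Aquantile left the ratios as they were, by construction. Most members lie far below the reference pool, and 4 were too dim to test.

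Replicate numbers are shared between groups. Each gene's group mean was subtracted, and what was left was correlated over genes between same-numbered samples. This correlation ran from -0.13 to 0.14, over 0.1 in 2 of 5 pairs. By it, 1 of 5 anti-GCGR samples matched best with its own number, so the numbers were taken as names only. With the replicate block 8 members rose, and 715 genes rose and 335 fell in all.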
